A study of Mus musculus with 12 samples.

Results

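The cluster of miR-132 and miR-212 has 4 mature arms, mmu-miR-132-3p, mmu-miR-132-5p, mmu-miR-212-3p, and mmu-miR-212-5p, which were taken by exact name from the 1881 mouse miRNAs on the array. They were followed in RNA of exosomes (small vesicles that cells release) that were precipitated from papain-digested brain tissue and captured with an antibody to CD11b, a surface protein of microglia and other myeloid cells. The mice were male C57BL/6, aged 12 weeks according to the methods. Mice with repetitive mild traumatic brain injury (rmTBI) received 4 closed-head impacts at intervals of 48 h and were sampled at 3, 14, or 42 days post-injury (DPI), which the study took as its acute, sub-acute, and chronic phase. Sham mice, the control group, went through the handling without an impact, and the labels give them no time point. The methods describe mixed tissue of cortex and hippocampus from both sides, while the labels name the injured hemisphere. Each group had 3 single-color Agilent miRNA arrays, 12 in all. The sources used here do not say whether an array held 1 animal or a pool, so p-values measure only the spread between these arrays.

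miR-132 and miR-212 are cut from a shared primary transcript whose promoter is driven by the transcription factor CREB, and neurons make more of them after synaptic activity and neurotrophin signaling. miR-132-3p promotes dendrite growth and spine maturation, and it is also induced in monocytes after an inflammatory stimulus. In each hairpin the 3p arm is the one usually loaded as the guide, and the 5p arm is usually the rarer product.

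All 4 arms matched a mature entry in RefSeq (GRCm38.p6), and their sequences are shown because the pairing of arms in the results follows the seed, the 7 bases from position 2 to 8 that are in capitals.
mmu-miR-132-3p: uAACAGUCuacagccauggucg
mmu-miR-212-3p: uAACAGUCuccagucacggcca
mmu-miR-132-5p: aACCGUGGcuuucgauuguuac
mmu-miR-212-5p: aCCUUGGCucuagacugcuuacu
miR-132-3p (chr11:75173723-75173744) and miR-212-3p (chr11:75173443-75173464) carried the same seed and were identical over their first 9 bases and at 17 of 22 positions in all. Counted from 1 at the 5′ end, with the base of miR-132-3p before the position, they differed as A10C, C14U, U17C, U20C, and G22A. No other mature mouse miRNA in the table used had this seed. miR-132-5p (chr11:75173686-75173707) and miR-212-5p (chr11:75173403-75173425) had seeds of their own, which no other entry in the table shared.

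The hairpins, with both arms in capitals, show how the arms of each miRNA face each other.
Mir132: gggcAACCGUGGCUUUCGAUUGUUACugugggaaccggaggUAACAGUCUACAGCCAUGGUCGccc
Mir212: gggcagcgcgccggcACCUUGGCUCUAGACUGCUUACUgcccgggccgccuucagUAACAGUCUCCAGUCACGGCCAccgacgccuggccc
Mir212 (91 bases, chr11:75173388-75173478) lies before Mir132 (66 bases, chr11:75173682-75173747) on the plus strand, with 203 bases between them. In the RefSeq gene table both hairpins lie in no other gene. The nearest gene before them is Hic1, which ends 3132 bases away, and the nearest after them is Ovca2, which starts 2195 bases away.

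The arrays differed in brightness by group and by slide. For sham, 3, 14, and 42 DPI in that order, the 75th percentile of intensity over the 230 miRNAs detected on all 12 arrays was 217 to 348, 401 to 619, 588 to 1173, and 1385 to 2936, and the number of miRNAs detected per array was 243 to 285, 326 to 416, 408 to 474, and 490 to 579 likewise. Slide 1 held the 3 sham arrays and 3 DPI replicate 1, and slide 2 held the other 8 arrays. Of the miRNAs that define microglia and myeloid cells, miR-142a-3p was detected on 0 sham and 0 arrays at 3 DPI, on 2 at 14 DPI, and on 3 at 42 DPI, and miR-223-3p on 1 sham array and on all 9 injury arrays. Of 7 neuron-enriched miRNAs, 6 were detected on all 3 sham arrays, so markers of neurons were in the preparation in every group. Fewer vesicles from a cell type and less of a miRNA per vesicle cannot be told apart in such a bulk sample.

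Values of the arms are given as log2 scaled signal, the log2 of the intensity summed over the 2 probes of an arm and divided by the array's 75th percentile, so that 0 is the level of that percentile and 1 unit is a doubling. Values under a floor of -5.42 were set to the floor. Levels of different arms come from different probes and were not compared with each other. Detection of an arm on an array required that, for 1 probe or more, a share above 0.5 of its usable spots was well above background.

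miR-132-3p, the guide arm known for dendrite and spine growth, was detected on all 12 arrays and did not pass the test in any comparison. On sham replicates 1, 2, and 3 its log2 scaled signal was 1.52, 2.40, and 2.24. At 3 DPI it was 2.33, 2.85, and 1.15. The groups overlapped, and 3 DPI held both the highest and the lowest of the 12 arrays. At 14 DPI its log2 scaled signal was 1.31, 2.14, and 1.96, and at 42 DPI it was 1.83, 1.47, and 1.67. The group means were 2.05 ± 0.47 (SD, n = 3) in sham, 2.11 ± 0.87 at 3 DPI, 1.80 ± 0.44 at 14 DPI, and 1.66 ± 0.18 at 42 DPI, so that neighbors in this order differed by less than the spread between arrays. By limma, the log2 change against sham was 0.06 (SE 0.43) at 3 DPI, -0.25 at 14 DPI, and -0.40 at 42 DPI, with adjusted p-values of 1, 0.793, and 0.476. The 95% confidence interval at 42 DPI ran from -1.36 to 0.56, which spans a fall to 0.389-fold and a rise to 1.48-fold of the sham level. The direction depends on the scaling, since with the 75th percentile taken over all miRNAs the change at 42 DPI was 0.38 and without scaling it was 2.42, while the median change of all 486 miRNAs moved from -0.09 to 0.54 and 2.02.

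miR-212-3p, which has the seed of miR-132-3p and so shares its predicted pairing with targets, was also detected on all 12 arrays. Its log2 scaled signal was -2.89, -2.50, and -2.52 on sham replicates 1, 2, and 3. At 3 DPI it was -2.54, -2.22, and -2.86. At 3 DPI replicate 2 lay above sham and the other arrays within its range. At 14 DPI its log2 scaled signal was -2.52, -1.92, and -1.84, and at 42 DPI it was -2.21, -2.17, and -2.26. The arrays at 42 DPI all lay above sham, while at 14 DPI replicates 2 and 3 lay above sham and replicate 1 lay within its range. The group means were -2.63 ± 0.22 (SD, n = 3) in sham, -2.54 ± 0.32 at 3 DPI, -2.09 ± 0.37 at 14 DPI, and -2.21 ± 0.05 at 42 DPI. By limma, the log2 change against sham was 0.09 (SE 0.21, adjusted p = 1) at 3 DPI. It was 0.54 (95% confidence interval 0.06 to 1.03, adjusted p = 0.175) at 14 DPI and 0.42 (-0.06 to 0.91, adjusted p = 0.137) at 42 DPI, neither of which passed the threshold of 0.05. Without 14 DPI replicate 1 the change at 14 DPI was 0.76 and passed (adjusted p = 0.0200), in a fit that called 167 of all 486 miRNAs in place of 18.

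miR-212-5p, the opposite arm of the miR-212 hairpin, passed the threshold in the limma fit at 42 DPI against sham, a comparison with a sham group in which it was detected on 1 of 3 arrays. It entered the test through the injury groups, where it was high, since all 3 arrays of each detected it, and it was not tested when detection on all 12 arrays was required. Its log2 scaled signal was -4.94, -4.92, and -4.64 on sham replicates 1, 2, and 3. At 3 DPI it was -4.79, -3.92, and -4.11. It was not detected on sham replicates 1 and 2, and on sham replicate 3 and 3 DPI replicate 1 it passed detection with 8 of 15 spots above background. At 14 DPI its log2 scaled signal was -4.68, -3.90, and -3.53, and at 42 DPI it was -3.74, -3.96, and -3.85. The 3 arrays at 42 DPI all lay above sham and close to each other, and the 3 arrays at 14 DPI spread from the sham range to the highest value of the series. The group means were -4.83 ± 0.17 (SD, n = 3) in sham, -4.27 ± 0.46 at 3 DPI, -4.03 ± 0.59 at 14 DPI, and -3.85 ± 0.11 at 42 DPI. By limma, the log2 change at 42 DPI was 0.98 (SE 0.30, 95% confidence interval 0.30 to 1.67, adjusted p = 0.0350). The changes of 0.56 (adjusted p = 1) at 3 DPI and 0.80 (adjusted p = 0.164) at 14 DPI did not pass. Without 14 DPI replicate 1 the change of miR-212-5p at 14 DPI was 1.12 and passed (adjusted p = 0.0151). That limma fit called 167 of all 486 miRNAs in place of 18.

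**Figure D1:**
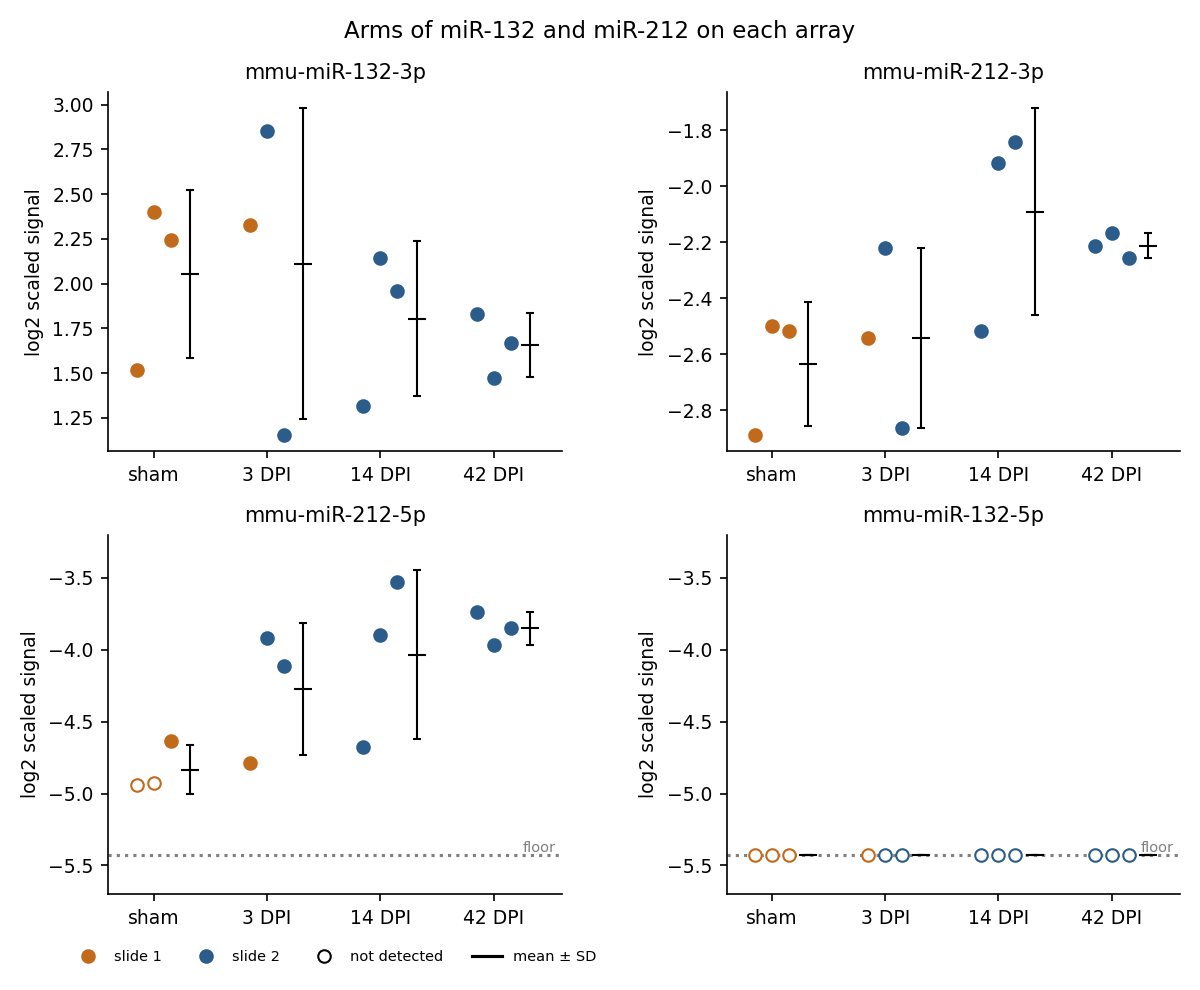
The log2 scaled signal of each arm (y axis, its range differing between panels) is plotted for every array, by group (x axis), with the group mean ± SD in black and color for the slide. miR-132-3p overlapped between all groups, the 3 arrays of miR-212-3p and of miR-212-5p at 42 DPI lay above sham, and miR-132-5p stood at the floor of -5.42 on all 12 arrays.

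The call of miR-212-5p was lost with some ways of handling slide and floor, and the sham arrays were dim. The dimmest miRNA detected on sham replicates 1 and 2 had a log2 scaled signal of -4.24 and -3.66, and the latter is above all 3 values of miR-212-5p at 42 DPI. With those values in place of its readings on the 2 arrays, the sham mean was -4.18 and the 42 DPI mean was 1.25-fold of it. This is no firm minimum. Detection is called per probe from its spots, so the dimmest detected miRNA does not bound an undetected one. The 4 arrays of slide 1 lay between -4.94 and -4.64 and the 8 of slide 2 between -4.68 and -3.53, and 3 DPI replicate 1, the injury array that shared the slide of the sham arrays, lay within the sham range. With slide as a block the change at 42 DPI was 0.21 (adjusted p = 0.777), an estimate that ties the slides together through the 3 DPI arrays alone. That fit called 0 of all 486 miRNAs in place of 174. With double the floor the change of miR-212-5p was 0.57 (adjusted p = 0.0773), in a fit that called 113 of all 486 miRNAs. With normexp background correction it turned to -0.81 and passed in that direction (adjusted p = 0.00012), where the median change of all 486 miRNAs was -0.86. The call was also lost in limma fits without sham replicate 1 (adjusted p = 0.111) or sham replicate 2 (0.0905). It was lost likewise without 42 DPI replicate 1 (0.108), replicate 2 (0.0679), or replicate 3 (0.0878). The changes in these fits lay between 0.92 and 1.04. Of all 486 miRNAs, 78, 82, 78, 120, and 85 were called in them, in that order, in place of 174.

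miR-132-5p, the opposite arm of the miR-132 hairpin, was not detected on any of the 12 arrays. Its intensity summed over both probes lay between -2.20 and 1.45, around 0 after the background was subtracted, and 0 of its spots were well above background. It stood at the floor throughout, was left out of the test, and has no fold change.

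Across all 486 miRNAs tested, the background against which the 3 tested arms are read differed greatly between comparisons. Against sham, 0 of 3 arms were called at 3 DPI, where 0.0% of all miRNAs were called (0 of 486, with 10 at an unadjusted p under 0.05). At 14 DPI 0 of 3 were called beside 3.7% of all, and 2 of 3, miR-212-3p and miR-212-5p, had an unadjusted p under 0.05. At 42 DPI 1 of 3 was called, as higher, beside 35.8% of all (70 higher and 104 lower), so a call there did not set the arm apart from other miRNAs. Same-numbered arrays of sham and 14 DPI deviated together over all miRNAs, and within these pairs, in the order of replicates 1, 2, and 3, the log2 change was -0.21, -0.26, and -0.29 for miR-132-3p and 0.37, 0.58, and 0.68 for miR-212-3p. With the pair as a block in a limma fit of these groups alone, the SE was 0.06 and 0.09 for these arms. Neither passed (adjusted p = 0.133 and 0.0982), in a fit that called 0 of all 486 miRNAs. The pairing rests on this shared deviation alone, and the fit was added after the data had been seen. Arrays of an arm lay apart from sham for 0 of 3 arms at 3 DPI (2.26% of all miRNAs), 0 of 3 at 14 DPI (14.8%), and 2 of 3 at 42 DPI (70.4%).

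Between time points, which were mostly hybridized on the same slide, none of the 3 tested arms passed. The share of all miRNAs called by limma was 1.23% for 14 against 3 DPI, 41.6% for 42 against 3 DPI (69 higher and 133 lower), and 0.0% for 42 against 14 DPI (55 at an unadjusted p under 0.05). From 3 to 42 DPI the log2 change was -0.45 for miR-132-3p (adjusted p = 0.384), 0.33 for miR-212-3p (0.221), and 0.42 for miR-212-5p (0.262). With only the 8 arrays of slide 2, these changes were -0.35, 0.33, and 0.16, and none passed. That fit called 57 of all 486 miRNAs in place of 202. From 14 to 42 DPI all 3 changes lay between -0.15 and 0.18, with adjusted p-values of 0.686 to 0.826, and the 95% confidence interval of miR-212-5p ran from -0.50 to 0.87. From 3 to 14 DPI they were -0.31, 0.45, and 0.24 for miR-132-3p, miR-212-3p, and miR-212-5p. Without 14 DPI replicate 1, that of miR-212-3p was 0.66 and passed (adjusted p = 0.0362), beside 137 of all 486 miRNAs called in place of 6.

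The probes of an arm were read separately to see whether they moved alike. Each arm had 2 probes printed 15 times per array, and none of their spots was saturated. Both probes of miR-132-3p were detected on all 12 arrays, with coefficients of variation over spots of 1.44% to 6.30%. Their log2 differences between 42 DPI and sham were -0.40 and -0.39, nearly the same. For miR-212-3p 1 probe was detected on 12 arrays and the other on 10, all but sham replicates 1 and 2, with coefficients of variation where detected of 5.45% to 17.5%. The difference at 42 DPI was 0.43 for the probe detected on 12 arrays, and none is given for the other, which was not above background on those sham arrays. For miR-212-5p 1 probe was detected on 10 arrays (all but sham replicates 1 and 2), with coefficients of variation of 3.57% to 24.7%. Its other probe was detected only on 42 DPI replicate 1, at an intensity of 15.6. On every other array, 42 DPI replicates 2 and 3 included, at most 1 probe of this arm was detected.

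**Figure D2:**
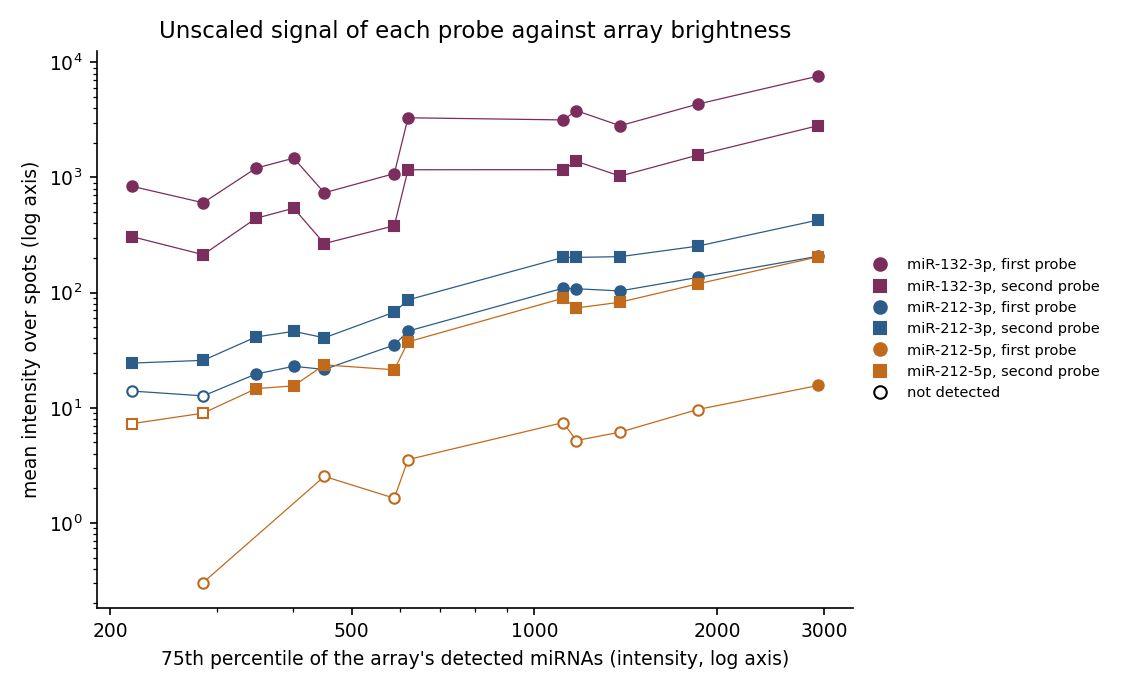
The unscaled intensity of each probe, averaged over its spots (y axis, log), is plotted against the 75th percentile of the array (x axis, log), with 1 point per array, open where the probe was not detected, and lines joining the points of a probe. The probes are those of the 3 detected arms, and each was brightest on the brightest array, while the open points of miR-212-3p and of the brighter miR-212-5p probe lie on the dimmest arrays, sham replicates 1 and 2. Points of the dimmer miR-212-5p probe at an intensity of 0 or less are not drawn, nor is miR-132-5p, which no array detected.

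The scaling between arrays cancels in the ratio of arms on the same array, and 2 such ratios were computed after the values had been seen. The summed intensity of miR-132-3p over that of miR-212-3p, which share a seed, was 21.2, 29.9, and 27.1 on the sham arrays. At 3 DPI it was 29.2, 33.6, and 16.2. All but the last of these lay in or above the sham range. The ratio was 14.2, 16.7, and 13.9 at 14 DPI and 16.4, 12.5, and 15.2 at 42 DPI, so that every array of both later groups lay below every sham array. How many ratios of other miRNAs lie apart in this way was not computed. Of single miRNAs, 14.8% lay apart from sham at 14 DPI and 70.4% at 42 DPI. The log2 ratio differed from sham by -0.79 (SE 0.17) at 14 DPI, by -0.82 (SE 0.19) at 42 DPI, and by -0.04 (SE 0.36) at 3 DPI. The exact two-sided permutation p was 0.1 at 14 and at 42 DPI, the smallest that 3 against 3 arrays allow, and 0.4 after adjustment over the 12 comparisons of both ratios, so neither passed. 3 DPI replicate 1, on the slide of the sham arrays, had a ratio of 29.2, and the arrays of 3 DPI on slide 2 had 33.6 and 16.2. With slide as a block, which ties the slides through the 3 DPI arrays alone, the difference from sham was -0.47 (SE 0.50) at 14 DPI and -0.50 (SE 0.50) at 42 DPI. With the brightest or the dimmest probe in place of the sum, the difference at 42 DPI was -0.83 or -0.81. The second value is limited by the dimmer miR-212-3p probe, which was not above background on sham replicates 1 and 2. With normexp it turned to 0.30 at 14 DPI and 0.55 at 42 DPI. The offset there adds 100 to the sum of 2 probes, and the sum of miR-212-3p was 38.4 to 60.8 on the sham arrays; its part in the turn was not tested. The unequal movement of miR-132-3p and miR-212-3p does not say which of them changed.

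The ratio of the arms of the miR-212 hairpin, miR-212-5p over miR-212-3p, was 0.241, 0.186, and 0.230 on the sham arrays, with the 5p arm not detected on replicates 1 and 2. It was 0.210, 0.308, and 0.421 at 3 DPI. The lowest of these was the array on slide 1. It was 0.224, 0.254, and 0.311 at 14 DPI and 0.347, 0.287, and 0.331 at 42 DPI. Since the sham ratios of replicates 1 and 2 rest on readings that were not above background, no difference from sham is given. Among the injury groups the values overlapped in each pair of groups, and none of the 3 comparisons passed (exact permutation p of 0.2 to 0.8).

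**Figure D3:**
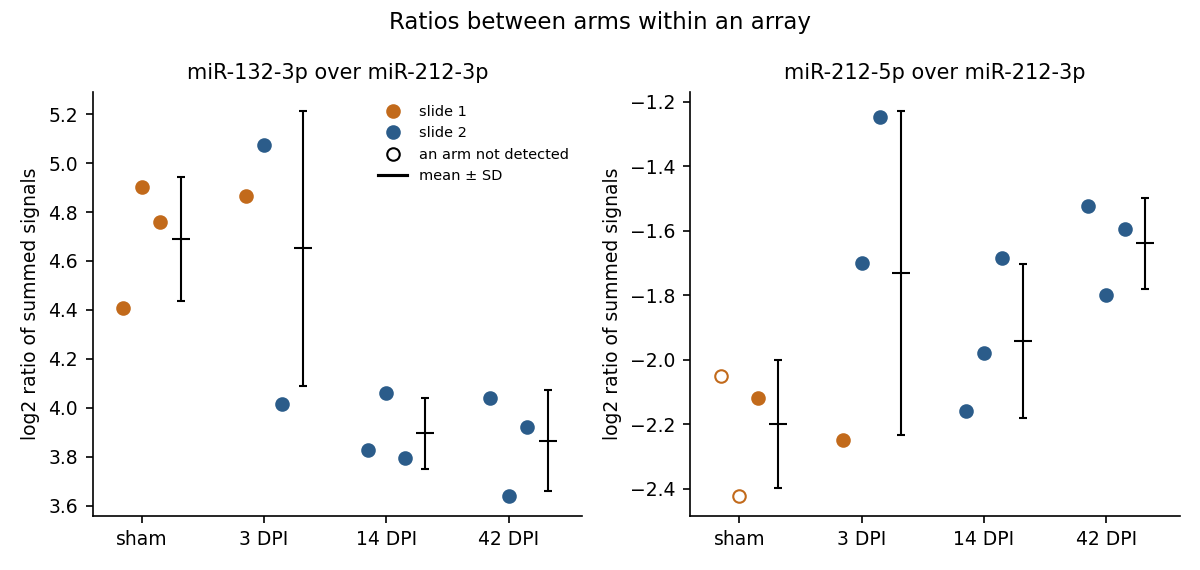
The log2 ratio of summed intensities on each array (y axis) is plotted by group (x axis) for miR-132-3p over miR-212-3p and for miR-212-5p over miR-212-3p, with group means ± SD in black, color for the slide, and open points where an arm was not detected. The ratio of the 3p arms lay between 12.5 and 16.7 on the 14 and 42 DPI arrays and between 21.2 and 29.9 on the sham arrays, as linear values.

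Over the 12 arrays the arms followed each other unequally. The Pearson correlation of log2 scaled signal was 0.74 between miR-212-3p and miR-212-5p, 0.34 between miR-132-3p and miR-212-3p, and -0.04 between miR-132-3p and miR-212-5p. These points share arrays and scaling, and the values are given as a description. Among the other miRNAs detected on all 12 arrays, those whose pattern was most like that of miR-132-3p were miR-22-3p (Pearson correlation 0.92), miR-674-3p (0.91), and miR-181b-5p (0.90). Those most like miR-212-3p were miR-222-3p (0.93), miR-381-3p (0.93), and miR-99b-5p (0.93). The lists of the 3p arms had no miRNA in common.

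Other miRNAs of neuronal activity and synapses were given by a list of 16, which covers members of the large cluster that holds miR-379, such as miR-134-5p and miR-379-5p, miRNAs of synaptic plasticity such as miR-138-5p, and neuron-enriched miRNAs such as miR-128-3p. All 16 were tested. At 42 DPI against sham 5 rose and 1 fell beside the 35.8% called among all miRNAs, and their median log2 change was 0.45 beside -0.09 over all 486. The largest changes among those called were 1.90 for miR-329-3p (SE 0.36, adjusted p = 0.00798), encoded in the same large cluster as miR-379, and -1.62 for miR-188-5p (SE 0.48, adjusted p = 0.0315). They were followed by 1.20 for miR-219a-5p, known for oligodendrocyte differentiation, and 1.13 for miR-384-5p. At 3 and 14 DPI 0 of 16 were called by limma, with medians of 0.15 and 0.31 beside 0.00 for all miRNAs at both times. Between 3 and 42 DPI 4 rose and 1 fell beside the 41.6% called among all, and 0 of 16 were called for 14 against 3 DPI and 42 against 14 DPI. With slide as a block 0 of the 486 miRNAs were called at 42 DPI against sham.

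Several markers of other cell types were also higher at 42 DPI than in sham, and their counts are read beside the 35.8% of all miRNAs called there. The lists share members with the activity list. Among them miR-128-3p, miR-137-3p, and miR-219a-5p were called higher and are counted in both, so the counts are not independent. The summed level of the 7 neuron-enriched miRNAs, as log2 scaled signal, ran, for sham, 3, 14, and 42 DPI in turn, from 4.04 to 4.45, 4.02 to 4.47, 4.06 to 5.03, and 4.89 to 5.09. At 42 DPI 2 of 7 were called higher and 0 lower. The summed level of the 3 oligodendrocyte miRNAs was 0.85 to 1.33 on the sham arrays and 2.04 to 2.15 at 42 DPI, with 2 of 3 called higher. Of the 6 microglia and myeloid miRNAs, 4 were tested and 1, miR-21a-5p, was called higher, and their summed level was -0.57 to -0.10 on the sham arrays and 0.42 to 0.59 at 42 DPI. Of the 3 erythrocyte miRNAs 1 was tested and was called lower, and of 2 endothelial miRNAs both were tested and 0 were called. The part of these cell types in the changes of miR-212-3p and miR-212-5p was not tested.

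**Figure D4:**
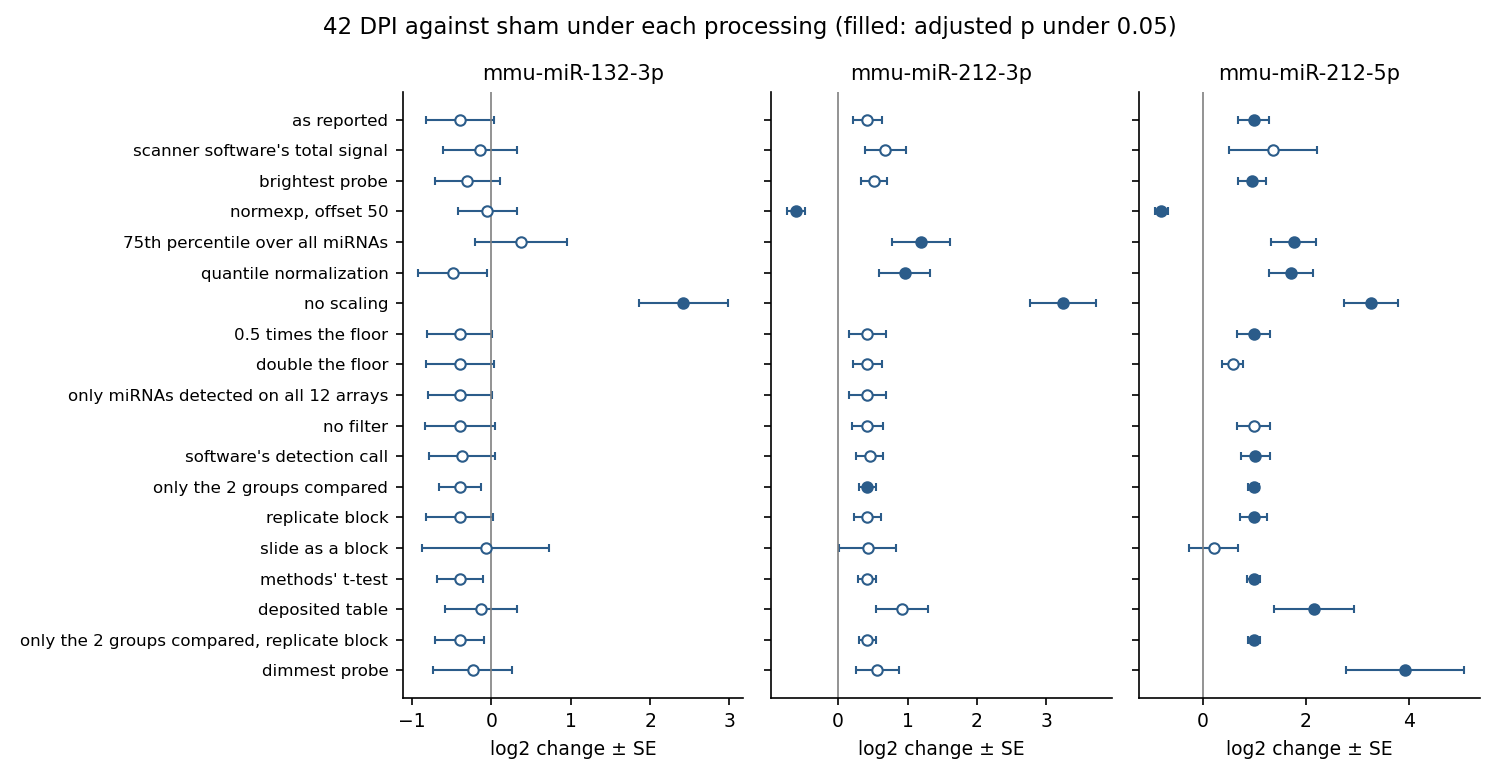
The log2 change at 42 DPI against sham (x axis, ± SE, its range differing between panels) is plotted for each tested arm under each processing (y axis), filled where the adjusted p was under 0.05. The change of miR-132-3p lay between -0.49 and 0.38 except without scaling (2.42). That of miR-212-5p ranged from -0.81 with normexp to 3.26 without scaling, apart from 3.92 with its dimmest probe. That probe was detected only on 42 DPI replicate 1 and on no sham array, so 3.92 does not measure a change from sham. The change of miR-212-3p turned to -0.61 with normexp. Empty places mark arms that were not in that test.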

How the data were processed

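Microglial exosome RNA of 12 samples was measured on single-color arrays, 1 per sample. The authors deposited, for each array, background-subtracted spot intensity from Agilent Feature Extraction 10.7.1.1, not normalized between arrays, with 0 or 1 flags per spot, and a table of processed log2 values whose scaling is not given in the sources used here. Control spots were dropped, as were spots with an outlier flag. Signal was averaged per probe, summed per miRNA, and scaled to the 75th percentile of the array, taken over 230 miRNAs that every array detected. A miRNA was tested if every array of some group detected it, which left 486 for limma 3.58.1 in R 4.3.3, in 1 fit of 12 arrays, two-sided, with Benjamini-Hochberg adjustment and a threshold of 0.05. Python 3.11.15 was used for ratios and sequences (SciPy 1.17.1, pandas 2.3.3, NumPy 2.4.6). The number of arrays limits the precision.

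The rule for named miRNAs took the 4 arms, the 3 miRNAs most correlated with each arm detected on all arrays, and up to 4 called members of the activity list by size of change. The arms and lists were chosen with earlier results of these data known. All 1440 spots of the arms lay nearest the grid of their own array. Same-numbered arrays of sham and 14 DPI deviated together (correlations over miRNAs 0.84, 0.44, and 0.74), which is the only ground for a pairing there; other groups did not. The fit was tested on simulated data. The alternatives were normexp with offset 50, the brightest probe, the software's total signal, quantile normalization, the percentile over all miRNAs, no scaling, a floor of 0.5 times or double its value, another detection call, a stricter and no filter, a fit of the compared groups alone, a block by slide or by replicate number, the deposited table, the methods' t-test, and leaving out each array. Only slide 2, only the groups compared with a replicate block, the dimmest probe, and the alternatives for the ratios were added after seeing the data. The qRT-PCR of the study was not analysed here.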

Additional observations from a re-analysis of the deposited data

How the results depend on the processing

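The numbers of arms called moved as follows. At 42 DPI against sham, 0 in place of 1 were called with the total signal, double the floor, no filter, or slide as a block. Of all miRNAs, 171, 113, 53 (of 1881), and 0 were called there, in that order. With only miRNAs detected on all 12 arrays, where miR-212-5p was not tested, 0 arms were called beside 118 of 230 miRNAs. With normexp, the percentile over all miRNAs, quantile normalization, or only the groups compared, 2 arms were called, and without scaling 3. Of all 486 miRNAs, 433, 244, 219, 282, and 418 were called in these settings, in that order. Arms called with normexp were called lower, in this and the comparisons that follow. At 14 DPI against sham, 1 was called with normexp and 3 without scaling, beside 377 and 348 of all miRNAs. At 3 DPI 1 was called with normexp, beside 178 of all. For 42 against 3 DPI, 2 were called with normexp, the percentile over all, or quantile normalization, 3 without scaling, and 1 in the deposited table. Of all miRNAs, 337, 265, 222, 308, and 286 were called in these settings, in that order. Leaving out an array gave 0 to 2 for 14 DPI against sham, 0 to 1 for 42 DPI against sham, and 0 to 1 for 14 against 3 DPI. Over all miRNAs, the calls at 42 DPI ranged from 0 with slide as a block to 433 with normexp, against 174, those at 3 DPI from 0 to 178, at 14 DPI from 0 to 377 (18), for 14 against 3 DPI from 0 to 107 (6), for 42 against 3 DPI from 0 to 337 (202), and for 42 against 14 DPI from 0 to 170 (0). Without an array they were 78 to 256 at 42 DPI, 1 to 167 at 14 DPI, 3 to 137 for 14 against 3 DPI, and 0 to 267 for 42 against 3 DPI.

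Directions turned in these cases. For miR-132-3p, the percentile over all miRNAs gave -0.017 at 3 DPI, 0.034 at 14 DPI, and 0.38 at 42 DPI against sham, 0.051 for 14 and 0.39 for 42 against 3 DPI, and 0.34 for 42 against 14 DPI. Without scaling it gave 1.47 at 14 DPI, 2.42 at 42 DPI, 0.62 for 14 and 1.57 for 42 against 3 DPI, and 0.95 for 42 against 14 DPI. At 14 DPI normexp gave 0.012 and slide as a block 0.074. For miR-212-3p, normexp gave -0.27, -0.29, and -0.61 at 3, 14, and 42 DPI, and -0.022 for 14 and -0.34 for 42 against 3 DPI. At 3 DPI quantile normalization gave -0.004 and the deposited table -0.012. For 42 against 14 DPI it was 0.37 with the percentile over all, 0.24 with quantile normalization, 0.98 without scaling, and 0.22 in the deposited table. For miR-212-5p, normexp gave -0.41, -0.78, and -0.81 at 3, 14, and 42 DPI, -0.37 for 14 and -0.40 for 42 against 3 DPI, and -0.031 for 42 against 14 DPI. For 14 against 3 DPI it was -0.018 with slide as a block and with only slide 2, and the total signal gave -0.86 for 42 against 3 DPI and -1.33 for 42 against 14 DPI. At 42 DPI the median change of all miRNAs was -0.09. It was -0.86 with normexp, 0.54 with the percentile over all, 0.21 with quantile normalization, 2.02 without scaling, and 0.44 in the deposited table. The -0.81 of miR-212-5p with normexp lay near the median of -0.86, and the arm was called lower there. The cause of these turns was not tested.

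Leaving out an array turned 11 of 216 values. For miR-132-3p the ranges were -0.32 to 0.53 at 3 DPI, -0.78 to 0.065 for 14 against 3 DPI, and -0.39 to 0.021 for 42 against 14 DPI. For miR-212-3p they were -0.067 to 0.25 at 3 DPI and -0.33 to 0.0057 for 42 against 14 DPI, and for miR-212-5p -0.018 to 0.56 for 14 against 3 DPI and -0.14 to 0.44 for 42 against 14 DPI. Of the other alternatives, 276 of 327 kept direction and side of the threshold. With the replicate block, miR-212-5p stayed called at 42 DPI (0.98, adjusted p = 0.0281), no other arm was called in any comparison, and calls over all miRNAs at 14 DPI went from 18 to 4. With only the groups compared and the block, miR-212-5p was called too (adjusted p = 0.0304). Of all 486 miRNAs, 145 and 161 were called at 42 DPI in these fits, in that order. Same-numbered arrays of sham and 42 DPI did not deviate together (correlations over miRNAs -0.38, -0.02, and 0.24), so the block has no ground there.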
